A study of Mus musculus with 35 samples.

Results

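The 10 genes described here were listed by symbol and encode the glucose transporter Slc2a3 and 9 enzymes of glycolysis, Hk1, Hk2, Gpi1, Pfkl, Pfkp, Aldoa, Pgk1, Eno1 and Ldha. The array annotation used here named 8 of the 10, out of 19938 genes named in all. Gpi1 and Eno1 were not in that annotation, and their levels were not analysed here. All 8 measured genes had values at or above the detection filter (the 30th percentile of the named probe sets of an array) on 35 of 35 arrays. Slc2a3 and Hk2 lie on chromosome 6, Hk1 and Pfkl on chromosome 10, Aldoa and Ldha on chromosome 7, Pfkp on chromosome 13 and Pgk1 on chromosome X.

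The 35 Affymetrix arrays carried RNA from mouse spleen cells sorted as conventional dendritic cells of type 1 (cDC1), which cross-present antigens of dying cells to CD8 T cells. In set 1, 4 arrays of MyclGFP/GFP cells (Mycl KO) stood against 5 arrays of MyclGFP/+ cells (HET), so that the controls also carried a GFP allele at Mycl. In set 2, 5 Mycl KO arrays stood against 5 arrays of Mycl+/+ cells (WT), and both of these sets were taken at steady state. In set 3, 5 Mycl KO arrays stood against 5 WT arrays, all from mice that had received 100 µg of poly IC 5 h earlier. Poly IC is an artificial double-stranded RNA that induces interferon. In the Mxd1 set, 3 arrays labelled Mxd1-/- stood against 3 arrays labelled Mxd1+/+, all taken 18 h after 100 µg of poly IC. The labels give no strain, sex or age, and no cell type to which the alleles are limited. The arrays of a group are called biological replicates, without saying whether each is a different mouse, so the p-values measure the spread between these arrays.

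Glycolysis splits glucose into pyruvate in the cytosol, with a net gain of ATP. Glucose enters through carriers such as Slc2a3 and Slc2a1, is trapped by hexokinases, committed by phosphofructokinase and cut by aldolase. The later steps, that of phosphoglycerate kinase among them, lead to pyruvate. Lactate dehydrogenase then converts pyruvate to lactate. Dendritic cells activated through pattern recognition receptors are known to raise this flux. MYC family proteins such as Mycl bind DNA with MAX at E-boxes, MXD proteins such as Mxd1 bind the same sites with MAX as repressors, and several glycolysis genes are known targets of MYC and of the hypoxia factor HIF-1.

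Levels are the authors' log2 values, treated as normalized separately for each set, so a difference of 1 is a doubling and levels are compared only within a set. They are relative to the other transcripts of an array, and in such bulk RNA fewer cells of a type and less RNA per cell cannot be told apart. All 10 cDC1 markers examined (among them Xcr1, Clec9a and Batf3) were at or above the filter on every array. Mycl was at 6.78 to 7.11 in KO and 9.65 to 9.93 in HET arrays of set 1, and at 5.51 to 5.80 in KO and 9.55 to 9.79 in WT arrays of set 2. In set 3 it was at 5.52 to 6.14 in 4 KO arrays, at 8.87 in KO array 3 and at 9.02 to 9.81 in WT arrays, so KO array 3 went against its label. Mxd1 in the Mxd1 set was at 10.41 to 10.64 in arrays labelled KO and at 10.63 to 11.03 in WT arrays, and the difference of -0.31 ± 0.11 (SE) stayed below the threshold of the test described below (limma, adjusted p = 0.260). The labels of that set are therefore not borne out by this probe set, whose place relative to the deleted sequence is not known. WT arrays 1 and 4 of set 3 also stood apart: the mean of 12 interferon response transcripts was 7.31 and 8.27 in them, against 10.43 to 10.74 in the other 3 WT arrays and 10.50 to 10.94 in the KO arrays. Differences of set 3 are given with and without these 2 WT arrays.

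Because the arrays compare mutants of E-box binding factors, the promoter windows of the genes were searched for their motifs. RefSeq windows of 300 bases (250 before and 50 after a transcript start, build GRCm38.p6) were found for 9 of the 10 genes, 15 windows in all, and not for Slc2a3. The motifs, on both strands, were the E-box CACGTG, which contains ACGTG on each strand, and the HIF cores ACGTG and GCGTG. The E-box was in 1 of the 15 windows, against 7.15% of 32851 mouse windows. ACGTG was in 6 (19.6% of all windows) and GCGTG in 8 (32.4%). Overlapping windows of Aldoa share their ACGTG, and overlapping windows of Eno1 share their GCGTG, so these sites are counted more than once. Whether the counts exceed the shares of all windows was not tested. The 3 windows shown, with matches in capitals, were picked for their matches. They are 1 of 2 windows of Hk1, the single window of Pgk1, and the 1 of 2 windows of Ldha that held the E-box. Hk1 was the enzyme whose RefSeq probe set changed in set 2. The other Hk1 window held no match to the 3 motifs, and the other Ldha window held 2 GCGTG and neither of the other motifs.
Hk1, chr10:62340372-62340671, minus strand: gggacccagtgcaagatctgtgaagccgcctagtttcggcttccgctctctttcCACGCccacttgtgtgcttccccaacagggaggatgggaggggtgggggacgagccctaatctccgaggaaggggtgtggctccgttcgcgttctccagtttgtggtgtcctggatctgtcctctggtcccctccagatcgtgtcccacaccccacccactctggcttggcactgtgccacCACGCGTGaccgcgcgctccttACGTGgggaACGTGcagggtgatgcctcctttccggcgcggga
Pgk1, chrX:106186850-106187149, plus strand: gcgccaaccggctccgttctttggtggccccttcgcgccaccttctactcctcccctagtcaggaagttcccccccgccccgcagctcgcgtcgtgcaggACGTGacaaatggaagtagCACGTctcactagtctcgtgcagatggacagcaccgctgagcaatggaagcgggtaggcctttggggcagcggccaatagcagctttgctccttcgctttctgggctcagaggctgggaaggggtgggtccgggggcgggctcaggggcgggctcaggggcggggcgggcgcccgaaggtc
Ldha, chr7:46845554-46845853, plus strand: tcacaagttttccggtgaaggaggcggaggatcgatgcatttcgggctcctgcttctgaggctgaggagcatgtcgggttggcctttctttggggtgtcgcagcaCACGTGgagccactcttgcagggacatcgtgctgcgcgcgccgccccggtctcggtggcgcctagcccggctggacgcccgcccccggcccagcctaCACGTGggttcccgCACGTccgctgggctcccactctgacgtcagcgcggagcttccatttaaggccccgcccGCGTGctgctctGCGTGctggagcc
The Ldha window shown held 2 E-boxes, a further ACGTG outside them and 2 GCGTG. The Hk1 window shown held 2 ACGTG and 3 GCGTG, of which a pair overlap on opposite strands, and the Pgk1 window held 2 ACGTG. Whether any of these letters is bound in cDC1 was not tested.

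Slc2a3 and, by its RefSeq probe set, Hk1 rose in Mycl KO cDC1 of set 2. Neither they nor any of the other 6 measured genes passed the test in set 1, in set 3 or in the Mxd1 set. The test was limma's two-sided moderated test, and a gene passed with a Benjamini-Hochberg adjusted p under 0.05, taken over every gene of the comparison. In set 2, 2 of the 8 genes passed, both higher in KO cells, beside 862 of all 14001 genes tested (6.16%), 530 of them higher (3.79%). Hk1 counts here by its RefSeq probe set, a condition added after the data were seen. By its brighter probe set it gave -0.18 and did not pass (limma, adjusted p = 0.248). Slc2a3 passed narrowly (adjusted p = 0.0470), and its call was lost in 7 of 10 fits with 1 array left out. That call was also lost without the filter and with median centring, quantile normalization, or trend and robust moderation. In set 1, 0 of the 8 passed, beside 3 of 14013 genes (0.0214%). At an unadjusted p under 0.05 were 5 of the 8 in set 2 (21.2% of all genes) and 1 of the 8 in set 1 (14.2%). The groups of set 1 overlapped in all 8 genes, while 4.47% of all genes there did not overlap. In set 3, 0 of the 8 passed, as did 0 of all 14019 genes, although 1991 of them (14.2%) had an unadjusted p under 0.05, including 2 of the 8. There limma with array weights called 72 genes, 1 of them Slc2a3, and limma with all 8 groups in 1 fit called 1910, Slc2a3 and Hk1 among them. In the Mxd1 set, 0 of the 8 passed beside 10 of 14067 genes (0.0711%), and 4 of the 8 had an unadjusted p under 0.05, against 15.9% of all genes. The median log2 fold change of the 8 genes was 0.0435 in set 2, -0.011 in set 1 and -0.0064 in set 3 (0.115 without WT arrays 1 and 4, with 0 of the 8 passing). It was 0.20 in the Mxd1 set, where 6 of 8 were above 0. The same median over all genes tested lay between -0.0021 (Mxd1 set) and 0.0079 (set 2).

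**Figure D1:**
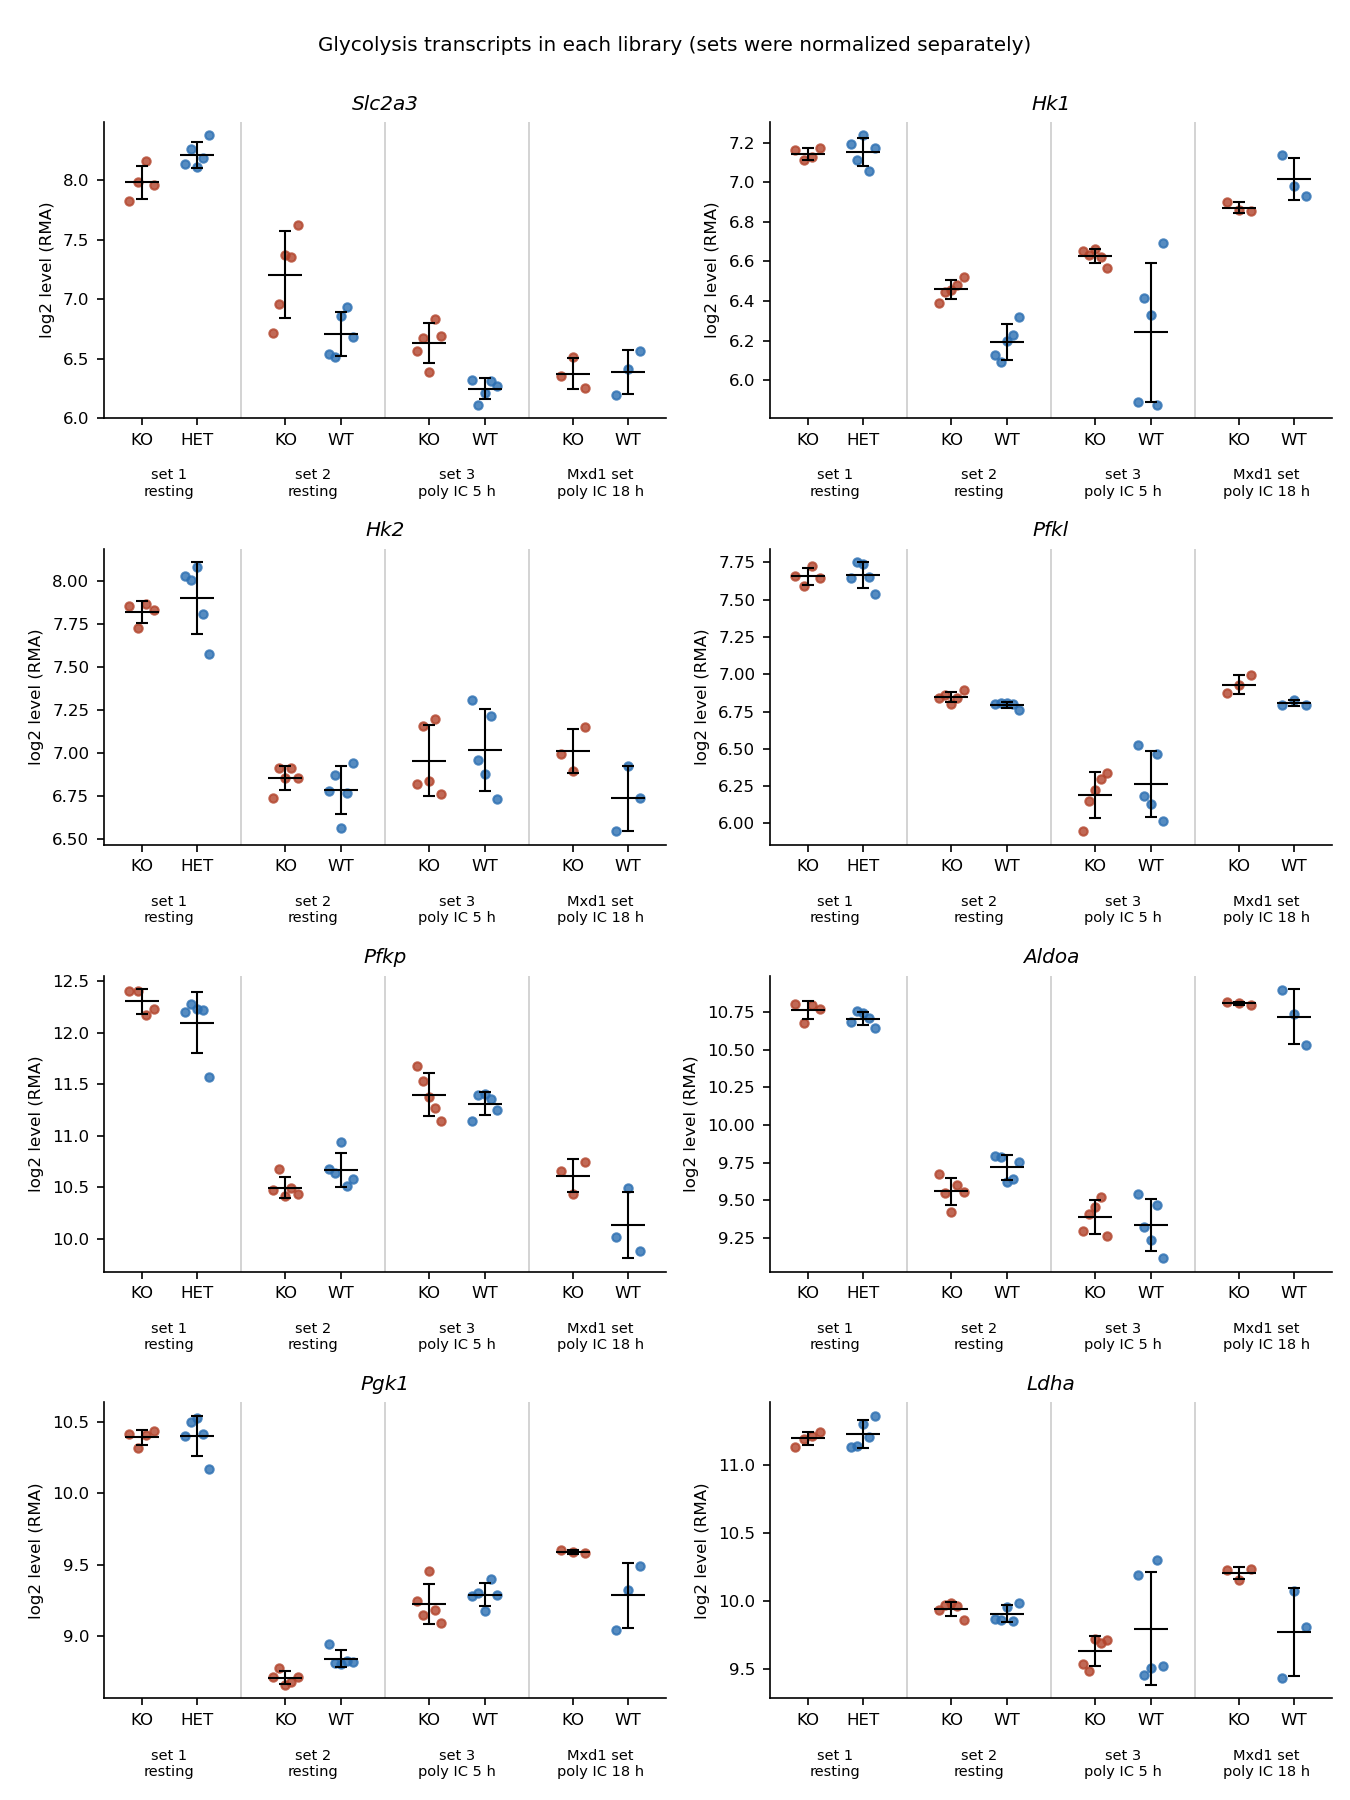
Log2 level of the 8 measured genes on each array (points), with the group mean (line) and SD (bars); KO arrays are red and HET or WT arrays blue, and the vertical axes differ between genes and cannot be compared across sets. Slc2a3 lies higher in KO than in WT arrays of sets 2 and 3 and lower in KO than in HET arrays of set 1, and Hk1 drops to 5.89 and 5.88 in WT arrays 1 and 4 of set 3.

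Slc2a3 (probe set 10547641) encodes GLUT3, a facilitative carrier with a high affinity for glucose. It rose in KO cells of set 2, was higher in every KO than in every WT array of set 3 without passing the test, and had an estimate of the opposite sign in set 1. In set 2 its log2 levels were 6.72, 6.96, 7.37, 7.36 and 7.62 in the KO arrays, against 6.54, 6.52, 6.86, 6.93 and 6.68 in the WT arrays. KO arrays 2 to 5 lay above every WT array and KO array 1 lay within the WT range, so the groups overlapped. The log2 fold change was 0.50 ± 0.14 (SE, n = 5 each; 95% interval 0.20 to 0.80; adjusted p = 0.0470). The call was lost when any of 7 of the 10 arrays was left out. The adjusted p was then 0.0888, 0.0976 and 0.116 without KO array 3, 4 or 5, and 0.117, 0.114, 0.0576 and 0.0669 without WT array 1, 2, 3 or 5, while the fold change stayed between 0.40 and 0.62. Among the KO arrays, markers of other dendritic cells and interferon response transcripts were highest in arrays 3, 4 and 5, as Slc2a3 was. The mean of 6 cDC2 markers was 5.40, 5.26, 5.69, 5.82 and 5.70 in KO arrays 1 to 5, against 5.11 to 5.31 in the WT arrays, with 4 of the 6 at or above the filter on every array of each group. The mean of 6 plasmacytoid markers, all above the filter, was 7.02 to 7.33 in KO and 6.99 to 7.08 in WT arrays, and KO arrays 3, 4 and 5 were the highest in it too. The mean of 12 interferon response transcripts was 6.46 to 6.83 in KO and 6.47 to 6.63 in WT arrays. Among the KO arrays it was again highest in arrays 3, 4 and 5. In the WT arrays the picture was mixed. WT arrays 3 and 4, the highest of them in Slc2a3, were also highest in the plasmacytoid mean (7.08 and 7.07). Their cDC2 means were 5.11 and 5.25. Their interferon means were 6.53 and 6.47, the latter the lowest of the WT arrays. The mean of 4 B cell markers was 5.04 to 5.27 in KO and 5.18 to 5.34 in WT arrays. The part of these markers and transcripts in the rise of Slc2a3 was not tested.

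In set 1 Slc2a3 was at 7.82, 7.98, 8.16 and 7.96 in the KO arrays, against 8.14, 8.27, 8.11, 8.18 and 8.38 in the HET arrays. KO arrays 1, 2 and 4 lay below every HET array, and KO array 3 lay among them. The difference of -0.23 ± 0.07 (SE, n = 4 and 5; 95% interval -0.40 to -0.07) did not pass (adjusted p = 0.236). The KO effect on Slc2a3 was 0.73 ± 0.18 lower in set 1 than in set 2 on the log2 scale, a difference that lay just over the threshold (-0.73, 95% interval -1.11 to -0.36; adjusted p = 0.0503), beside 147 of 14630 genes that passed (1%). It passed without set 2 KO array 1 (-0.86, adjusted p = 0.00730), KO array 2 (-0.80, 0.0429) or WT array 4 (-0.79, 0.0475), and with array weights (-0.80, 0.00966), which called 584 genes. Those were 3 of 19 fits with 1 array left out, and the adjusted p of the others reached 0.11. With the replicate block it was 0.0531. The control genotype (HET in set 1, WT in set 2) and the set cannot be told apart in this difference. Over both steady-state sets together the KO effect on Slc2a3 was 0.16 ± 0.12 (adjusted p = 0.523), where 649 of 14630 genes passed (4.44%) and 0 of the 8 did.

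After poly IC, in set 3, Slc2a3 was at 6.56, 6.67, 6.39, 6.83 and 6.69 in the KO arrays, against 6.32, 6.11, 6.21, 6.31 and 6.27 in the WT arrays. Every KO array lay above every WT array, as for 1.9% of all genes tested. The log2 fold change was 0.38 ± 0.09 (SE, n = 5 each; 95% interval 0.20 to 0.57), with an unadjusted p of 0.000904 and an adjusted p of 0.211. Without WT arrays 1 and 4 it was 0.43 (adjusted p = 0.107), and without KO array 3, the KO array with Mycl at 8.87 and the lowest Slc2a3, it was 0.44 (0.128). It passed with array weights (0.47, 0.0319) and with all 8 groups in 1 fit (0.0293). These settings called 72 and 1910 of 14019 genes. The KO effect differed from that of set 2 by -0.12 (95% interval -0.51 to 0.27, adjusted p = 0.805), and in this difference, with 3 of 14654 genes called (0.0205%), set and treatment cannot be told apart. Without WT arrays 1 and 4 this difference was -0.069 (adjusted p = 0.950). In arrays of the Mxd1 set Slc2a3 was at 6.35, 6.51 and 6.25 in arrays labelled KO, against 6.19, 6.41 and 6.56 in WT arrays. The groups overlapped throughout, with a difference of -0.02 (95% interval -0.28 to 0.24).

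Hk1 and Hk2 encode hexokinases, which phosphorylate glucose and so hold it in the cell; Hk1 is the broadly expressed form and Hk2 the inducible one. Hk1 rose in KO cells of set 2, and Hk2 passed no test. For Hk1 (probe set 10369541) the log2 levels in set 2 were 6.39, 6.45, 6.46, 6.48 and 6.52 in the KO arrays, against 6.13, 6.09, 6.20, 6.23 and 6.32 in the WT arrays. Every KO array lay above every WT array, as for 3.74% of all genes tested. The log2 fold change was 0.27 ± 0.06 (SE, n = 5 each; 95% interval 0.15 to 0.39; adjusted p = 0.0141), a 1.20-fold rise that passed with each of the 10 arrays left out in turn (adjusted p 0.00860 to 0.0440). It did not pass with all 8 groups in 1 fit (adjusted p = 0.121).

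A second probe set named Hk1 is the brighter of the pair. Its only accession is not a RefSeq one and is shared with 17 other probe sets, 16 of them also named for the ribosomal protein gene Rpl17. The remaining 1, named for Hk1 alone, is the probe set used here, which carries a RefSeq accession as well. The shared accession therefore does not set the probe sets of Hk1 apart, and the choice rests on the RefSeq accession. The other one gave -0.18 in set 2 (adjusted p = 0.248) and the mean of both gave 0.04 (0.734), so the call for Hk1 holds for its RefSeq probe set alone. In set 1 Hk1 was at 7.16, 7.11, 7.13 and 7.17 in KO arrays and at 7.19, 7.12, 7.24, 7.06 and 7.18 in HET arrays, and the HET arrays spanned all 4 KO arrays. The difference was -0.01 (95% interval -0.11 to 0.09). The KO effect of set 1 differed from that of set 2 by -0.28 ± 0.07 (adjusted p = 0.0608). This passed with array weights (0.0279), which called 584 genes, and without set 2 KO array 1 (-0.29, 0.0402) or WT array 5 (-0.31, 0.0282). Those were 2 of 19 fits with 1 array left out, and the adjusted p of the others reached 0.138. With the replicate block it was 0.172, and by the brighter probe set the difference was 0.26 (adjusted p = 0.214).

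In set 3 Hk1 was at 6.65, 6.63, 6.66, 6.62 and 6.57 in the KO arrays, against 5.89, 6.41, 6.33, 5.88 and 6.69 in the WT arrays. WT arrays 1 and 4, with the low interferon transcripts, were the lowest in Hk1, and WT array 5 lay above every KO array. The log2 fold change of 0.39 ± 0.14 (95% interval 0.07 to 0.70; adjusted p = 0.302) was 0.15 without WT arrays 1 and 4 (adjusted p = 0.645). After 18 h of poly IC, in the Mxd1 set, Hk1 was at 6.90, 6.86 and 6.86 in arrays labelled KO, against 7.14, 6.98 and 6.93 in WT arrays. All 3 arrays labelled KO lay below the WT arrays, as for 10.8% of all genes tested. The difference of -0.14 ± 0.08 (95% interval -0.33 to 0.04) did not pass (adjusted p = 0.426).

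Hk2 (probe set 10545588) overlapped between the groups of every set. Its range was 6.74 to 6.91 in KO and 6.57 to 6.94 in WT arrays of set 2, and 7.73 to 7.86 in KO and 7.58 to 8.08 in HET arrays of set 1. The differences were 0.07 (95% interval -0.08 to 0.22) in set 2 and -0.08 (-0.29 to 0.12) in set 1. In set 3 the difference was -0.06 (-0.35 to 0.22), and it was 0.10 without WT arrays 1 and 4, which were the 2 highest of the set. Only in the Mxd1 set did its interval leave out 0, with levels of 6.99, 6.89 and 7.15 in arrays labelled KO, against 6.54, 6.92 and 6.74 in WT arrays. That difference, 0.28 ± 0.11 (0.01 to 0.54), did not pass (adjusted p = 0.295), and it was not tested against those of the other sets.

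**Figure D2:**
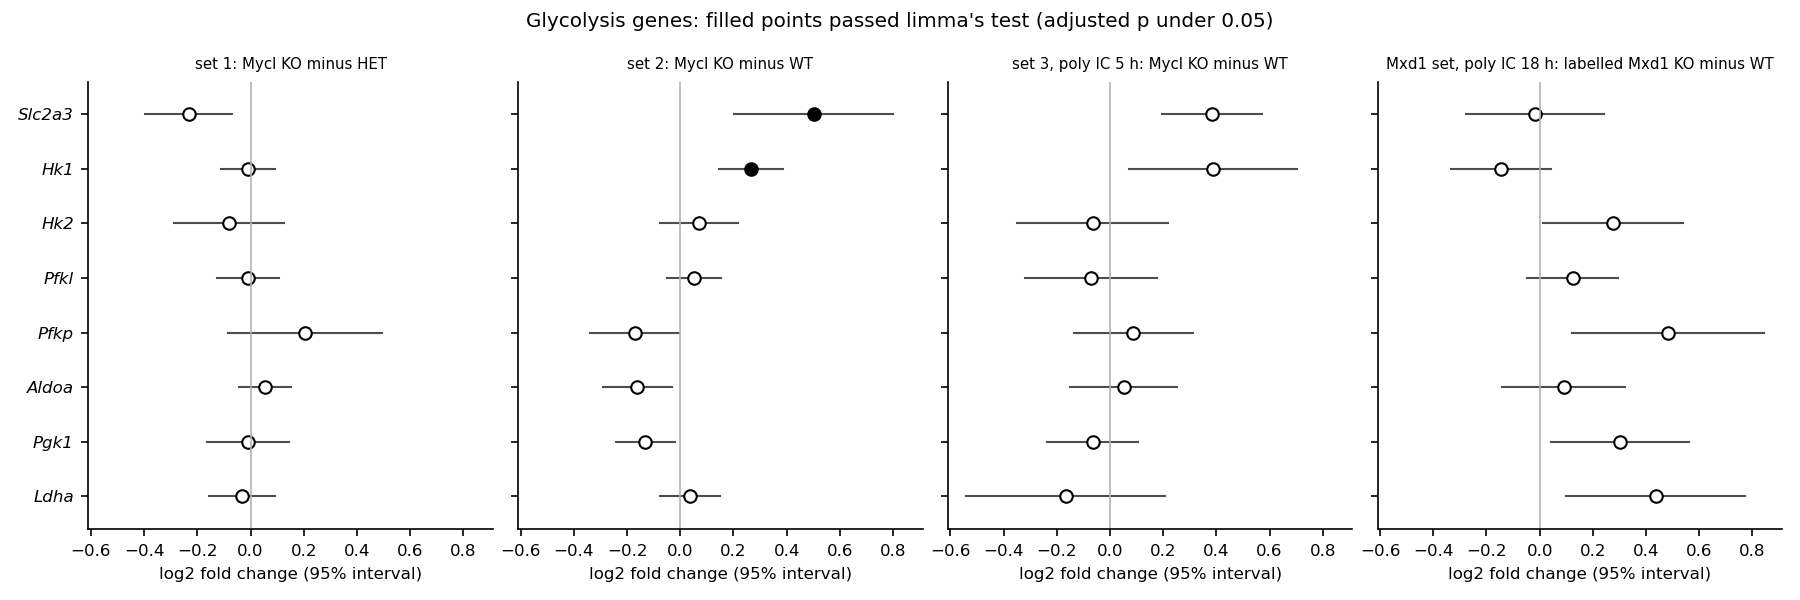
Log2 fold changes of the 8 measured genes, KO minus control, with 95% intervals, in the 4 within-set comparisons; filled points passed limma's test with an adjusted p under 0.05. The filled points are Slc2a3 (0.50) and, by its RefSeq probe set, Hk1 (0.27) in set 2. In the Mxd1 set Pfkp (0.48), Ldha (0.44) and Pgk1 (0.30) lie furthest above 0 without passing.

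Pfkl and Pfkp encode the liver and platelet subunits of phosphofructokinase, the committed and most tightly controlled step of glycolysis. Neither passed the test in any set. Pfkl (probe set 10370376) was at 6.80 to 6.90 in KO and 6.76 to 6.81 in WT arrays of set 2, a difference of 0.05 (95% interval -0.05 to 0.15). In set 1 the difference was -0.01 (-0.13 to 0.11). In set 3 Pfkl was at 5.95, 6.15, 6.22, 6.30 and 6.34 in the KO arrays, against 6.52, 6.18, 6.13, 6.46 and 6.02 in the WT arrays, where WT arrays 1 and 4 were again apart, above all KO arrays. The difference of -0.07 (-0.32 to 0.18) was 0.08 without those WT arrays. Pfkl in the Mxd1 set was at 6.87, 6.92 and 6.99 in arrays labelled KO, against 6.79, 6.83 and 6.80 in WT arrays. All 3 arrays labelled KO lay above the WT arrays, as for 11.9% of all genes tested, with a difference of 0.12 (-0.05 to 0.30; adjusted p = 0.445).

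Pfkp (probe set 10407481) was at 10.47, 10.68, 10.41, 10.50 and 10.44 in KO arrays of set 2, against 10.68, 10.64, 10.94, 10.51 and 10.58 in WT arrays. The difference of -0.17 ± 0.08 (95% interval -0.34 to -0.0047) did not pass (adjusted p = 0.220). In set 1 it was at 12.17 to 12.41 in KO arrays, against 12.20 to 12.28 in 4 HET arrays and 11.58 in HET array 5, and the difference was 0.20 (-0.09 to 0.49), or 0.073 without HET array 5. In set 3 the difference was 0.09 (-0.14 to 0.31), and 0.047 without WT arrays 1 and 4. Pfkp in the Mxd1 set was at 10.66, 10.44 and 10.74 in arrays labelled KO, against 10.02, 10.49 and 9.89 in WT arrays, with WT array 2 the only WT array above an array labelled KO. That difference was the largest of the 8 genes in this set, 0.48 ± 0.16 (SE, n = 3 each; 95% interval 0.12 to 0.84), with an unadjusted p of 0.0145 and an adjusted p of 0.232.

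Aldoa encodes aldolase A, which cuts fructose bisphosphate into trioses, and Pgk1 encodes phosphoglycerate kinase, an ATP-forming step. Neither passed in any set, and in set 2 both had estimates below 0. Aldoa (probe set 10568050) was at 9.67, 9.55, 9.42, 9.60 and 9.55 in KO arrays of set 2, against 9.79, 9.79, 9.62, 9.64 and 9.75 in WT arrays. KO array 1 lay above WT arrays 3 and 4, so the groups overlapped. The difference was -0.16 ± 0.06 (95% interval -0.29 to -0.03; adjusted p = 0.138), against 0.06 (-0.04 to 0.15) in set 1 and 0.05 (-0.15 to 0.25) in set 3. The set 3 difference was 0.16 without WT arrays 1 and 4 (adjusted p = 0.587) and -0.0039 without WT array 5. Arrays labelled Mxd1 KO differed from WT arrays by 0.09 (-0.14 to 0.32). The KO effect on Aldoa in set 1 differed from that in set 2 by 0.22 ± 0.08 (adjusted p = 0.162). This passed with array weights (0.24, 0.0428), which called 584 genes, and in none of 19 fits with 1 array left out (adjusted p 0.0857 to 0.294).

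Pgk1 (probe set 10399379) was at 8.71, 8.78, 8.66, 8.68 and 8.72 in KO arrays of set 2, against 8.94, 8.81, 8.80, 8.82 and 8.82 in WT arrays. Every KO array lay below every WT array, as for 3% of all genes tested. The difference of -0.13 ± 0.05 (95% interval -0.24 to -0.02) did not pass (adjusted p = 0.153). It was -0.01 (-0.16 to 0.14) in set 1 and -0.06 (-0.24 to 0.11) in set 3, where it was -0.029 without WT arrays 1 and 4. In the Mxd1 set Pgk1 was at 9.60, 9.59 and 9.58 in arrays labelled KO, against 9.04, 9.32 and 9.49 in WT arrays. The 3 arrays labelled KO lay close together above a wider WT group. Such a separation, KO above WT, was seen in 11.9% of all genes tested. The difference was 0.30 ± 0.11 (0.04 to 0.56, adjusted p = 0.266). Without WT array 1 it was 0.18 (adjusted p = 0.446). The 3 probe sets of Pgk1, 2 of them with identical values on all arrays, differed in fold change by at most 0.01.

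Ldha encodes the subunit of lactate dehydrogenase that prevails in muscle and in many activated immune cells, and turns pyruvate into lactate. It did not pass a test in any set, and its differences in set 3 and the Mxd1 set changed with single WT arrays. In set 2 Ldha (probe set 10553301) was at 9.93, 9.97, 9.98, 9.96 and 9.86 in KO arrays, against 9.87, 9.86, 9.96, 9.85 and 9.99 in WT arrays. The groups overlapped, and the difference was 0.04 (95% interval -0.08 to 0.15). In set 1 the difference was -0.03 (-0.16 to 0.09). In set 3 Ldha was at 9.54, 9.48, 9.72, 9.69 and 9.71 in the KO arrays, against 10.19, 9.46, 9.51, 10.30 and 9.52 in the WT arrays. WT arrays 1 and 4 stood above all other arrays of the set and the other 3 WT arrays lay among or below the KO arrays. The difference was -0.17 ± 0.17 (-0.54 to 0.21) with them and 0.13 without them (adjusted p = 0.635 and 0.658).

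In the Mxd1 set Ldha was at 10.23, 10.16 and 10.24 in arrays labelled KO, against 9.43, 10.07 and 9.81 in WT arrays. All 3 arrays labelled KO lay above the WT arrays, as for 11.9% of all genes tested, and WT array 1 was the lowest. The difference was 0.44 ± 0.15 (SE, n = 3 each; 95% interval 0.10 to 0.77), with an unadjusted p of 0.0168 and an adjusted p of 0.236. WT array 1 was also the lowest in the mean of 10 cDC1 markers, 10.56, against 10.97 to 11.04 in arrays labelled KO and 10.91 and 10.92 in the other WT arrays. Without it the difference in Ldha was 0.27 (adjusted p = 0.396). Without WT array 2, Ldha (0.59, adjusted p = 0.0486) and Pfkp (0.66, 0.0364) passed, and 562 genes in all did. The part of WT array 1 and its marker levels in these differences was otherwise not tested.

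**Figure D3:**
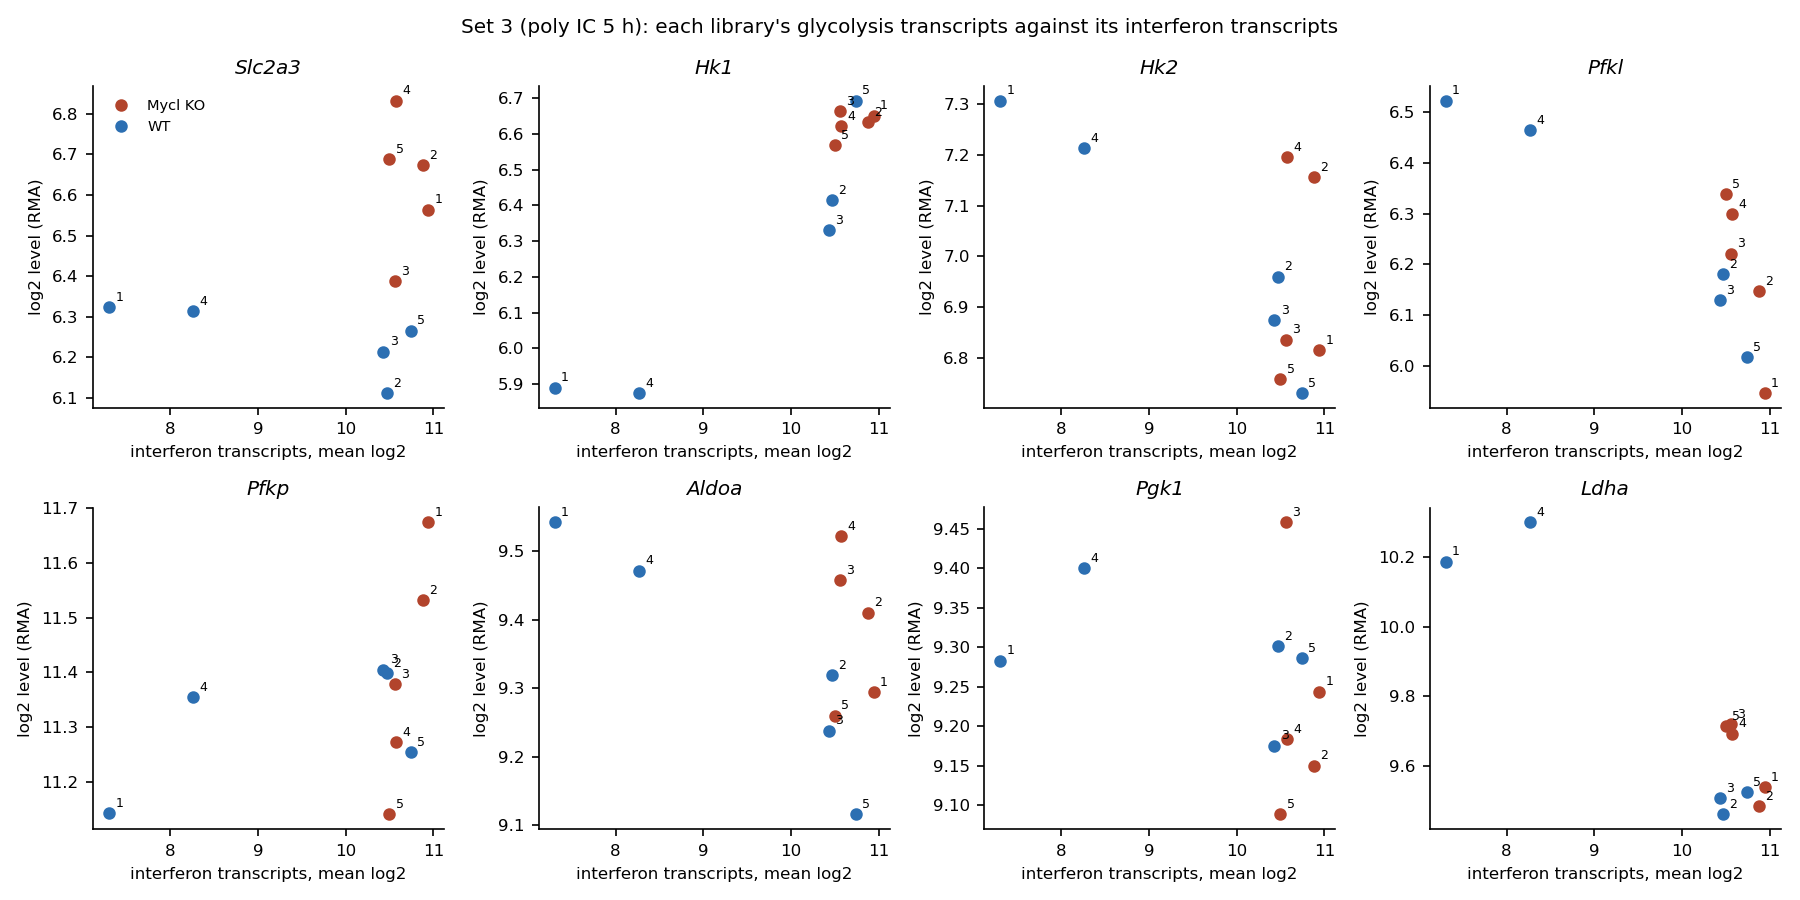
Set 3, 5 h after poly IC: log2 level of each gene on each array (vertical axis, different for each gene) against the mean log2 level of 12 interferon response transcripts on that array (horizontal axis); KO arrays are red, WT arrays blue, and numbers are replicate numbers. WT arrays 1 and 4, at 7.31 and 8.27 on the horizontal axis, are the highest arrays in Pfkl and Ldha and the lowest in Hk1, while Slc2a3 in them stays below all KO arrays.

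In WT arrays 1 and 4 of set 3, where the interferon transcripts were low, the cDC1 marker mean was 10.84 and 11.00, against 10.23 to 10.38 in the other WT arrays and 10.15 to 10.34 in the KO arrays. The interferon-induced gene Ifit1 was at 6.09 and 7.29 in them, against 10.93 to 11.55 in KO arrays and 10.82 to 11.25 in the other WT arrays. The plot of set 3 against the interferon transcripts shows these arrays apart in Hk1, Pfkl and Ldha. The neutrophil marker mean also varied in this set, at 6.20 to 7.71 in KO and 5.69 to 7.15 in WT arrays, with 5 of the 6 markers at or above the filter on every array of each group. Leaving out KO array 3, whose Mycl level went against its label, gave 0.38 for Hk1, -0.035 for Hk2, -0.080 for Pfkl, 0.094 for Pfkp, 0.034 for Aldoa, -0.12 for Pgk1 and -0.19 for Ldha, and none of them passed. The part of the interferon and neutrophil transcripts in the values of the 8 genes was not tested beyond leaving out the arrays.

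Across arrays, the 8 genes did not vary as a block. After subtracting group means over all 35 arrays, Pfkl and Ldha had a Pearson correlation of 0.64, Hk2 and Pfkl of 0.60, Hk1 and Ldha of -0.73 and Hk1 and Pfkl of -0.72. Without WT arrays 1 and 4 of set 3 (33 arrays) these were 0.14, 0.39, -0.13 and -0.29. Slc2a3 had correlations between -0.32 and 0.19 with the 7 measured enzymes over the 35 arrays, and between -0.46 and 0.14 over the 33. The genes outside the list whose centred levels were most like Slc2a3 over the 35 arrays were Cd7 (0.80), an immunoglobulin superfamily receptor of lymphoid cells and some dendritic cells, the sodium channel subunit gene Scnn1a (0.75), Rasgrp2 (0.71), an exchange factor for Rap GTPases, Adat1 (0.71) and the selenoprotein P gene Selenop (0.70). For the mean of the 7 measured enzymes they were the endoplasmic reticulum chaperone gene Hyou1 (0.88), the oligosaccharyltransferase subunit gene Stt3a (0.88), Aldh9a1 (0.88), Nsmaf (0.85) and the spliceosome gene Eftud2 (0.84). These are descriptions over arrays that share sets and normalization.

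Other genes of glucose handling showed single changes in set 2 rather than a shift of whole groups. There, 6 of the 64 genes tested in 6 lists of such genes passed, beside 6.16% of all genes tested. Of all genes tested, 3.79% rose and 2.37% fell. Of 13 tested genes among 16 other isoforms and steps of glycolysis, 1 fell, the myeloid hexokinase Hk3, where 2.37% of all genes fell. Of 8 tested among 11 carriers of glucose and lactate, the glucose carrier Slc2a1 (GLUT1) rose and the lactate and pyruvate carrier Slc16a1 (MCT1) fell. In set 2, 0 passed of 13 tested among 16 genes that control phosphofructokinase and pyruvate dehydrogenase, and 0 of 6 tested among 7 pentose phosphate genes. Of 7 glycogen genes, the glycogen phosphorylase Pygb rose and the phosphoglucomutase Pgm1 fell. Of 17 tested among 18 genes of HIF and glucose sensing, Txnip, a glucose-induced arrestin that restrains glucose uptake, rose. The medians of the 6 lists lay between -0.07 and 0.05 in set 2, against 0.01 over all genes. No gene of these lists passed in set 1, in set 3 (with or without WT arrays 1 and 4) or in the Mxd1 set.

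Slc2a1 had the smallest adjusted p of these genes. In set 2 it was at 9.10, 9.25, 9.32, 9.22 and 9.35 in KO arrays, against 8.65, 8.63, 8.74, 8.67 and 8.94 in WT arrays. Every KO array lay above every WT array, as for 3.74% of all genes tested. The log2 fold change was 0.52 ± 0.07 (SE; adjusted p = 0.000706), the same size as that of Slc2a3. In set 3 Slc2a1 was at 8.86 to 9.17 in KO and 8.43 to 8.70 in WT arrays. Every KO array again lay above every WT array, as for 1.9% of all genes tested. The fold change of 0.47 ± 0.08 did not pass (95% interval 0.28 to 0.65, adjusted p = 0.150). Without WT arrays 1 and 4 it was 0.46 (0.0881), and it passed with array weights (0.46, 0.0334) and with all 8 groups in 1 fit (0.0012). The last 2 settings called 72 and 1910 of 14019 genes. In set 1 its levels overlapped, at 9.72 to 9.76 in KO and 9.54 to 9.76 in HET arrays, and the difference was 0.06 (-0.05 to 0.17). The KO effect in set 1 differed from that in set 2 by -0.46 ± 0.09 (adjusted p = 0.0169). Slc2a1 lies on chromosome 4 with Mycl, with 32 tested genes between them, and Slc2a3 lies on chromosome 6.

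Of the other named genes, Txnip was at 10.59, 10.41, 10.61, 10.73 and 10.62 in KO arrays of set 2, against 10.11, 10.20, 9.50, 10.24 and 10.16 in WT arrays. Every KO array lay above every WT array, as for 3.74% of all genes tested. The log2 fold change was 0.55 ± 0.12 (SE, adjusted p = 0.0135). Pgm1 fell by 0.35 ± 0.07 in set 2 (adjusted p = 0.0110) and lies on chromosome 4 with 168 tested genes between it and Mycl. Pygb rose by 0.30 ± 0.07 (0.0183), a call lost without KO array 5 (0.0509). Hk3 fell by 0.26 ± 0.06 (0.0205), a call lost without KO array 5 (0.0543), WT array 1 (0.0554) or WT array 2 (0.0572). Slc16a1 fell by 0.26 ± 0.07 (0.0475), a call lost without KO array 1, 3, 4 or 5 (0.0881, 0.0655, 0.0960 and 0.0814) or WT array 1, 3 or 4 (0.120, 0.109 and 0.0928). It was also lost without the filter (0.0613), with median centring (0.0551), with all 8 groups in 1 fit (0.279) and with the replicate block (0.0852).

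Over both steady-state sets together, 5 of the 66 genes tested in these lists passed, beside 4.44% of all genes. Slc2a1 (0.30 ± 0.07, adjusted p = 0.00909), Txnip (0.35 ± 0.08, 0.0189) and the Txnip relative Arrdc4 (0.23 ± 0.06, 0.0231) rose, and Slc16a1 (-0.31 ± 0.06, 0.00271) and Pgm1 (-0.25 ± 0.06, 0.0174) fell. The differences in set 1 and set 2 were 0.06 and 0.52 for Slc2a1, 0.12 and 0.55 for Txnip and 0.34 and 0.14 for Arrdc4. They were -0.36 and -0.26 for Slc16a1 and -0.14 and -0.35 for Pgm1. None of the 5 passed in set 1, and Arrdc4 did not pass in set 2 (adjusted p = 0.352). With all 8 groups in 1 fit, Slc16a1 (0.075), Pgm1 (0.058), Txnip (0.094) and Arrdc4 (0.18) lost their calls over both sets. The call of Pgm1 was lost with array weights (-0.19, 0.0660) and with the replicate block (0.0586). The call of Arrdc4 was lost without set 2 WT array 1 (0.0506). Slc16a1 was lower on average in KO than in control arrays of both sets, at 6.90 to 7.13 in KO and 7.17 to 7.61 in HET arrays of set 1 and at 5.95 to 6.29 in KO and 6.26 to 6.51 in WT arrays of set 2. Of the 8 glycolysis genes, Hk1 by its RefSeq probe set came nearest over both sets, at 0.14 ± 0.05 (adjusted p = 0.0944). By its brighter probe set Hk1 was at -0.056 (adjusted p = 0.665). The other 7 genes lay between -0.07 and 0.16.

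**Figure D4:**
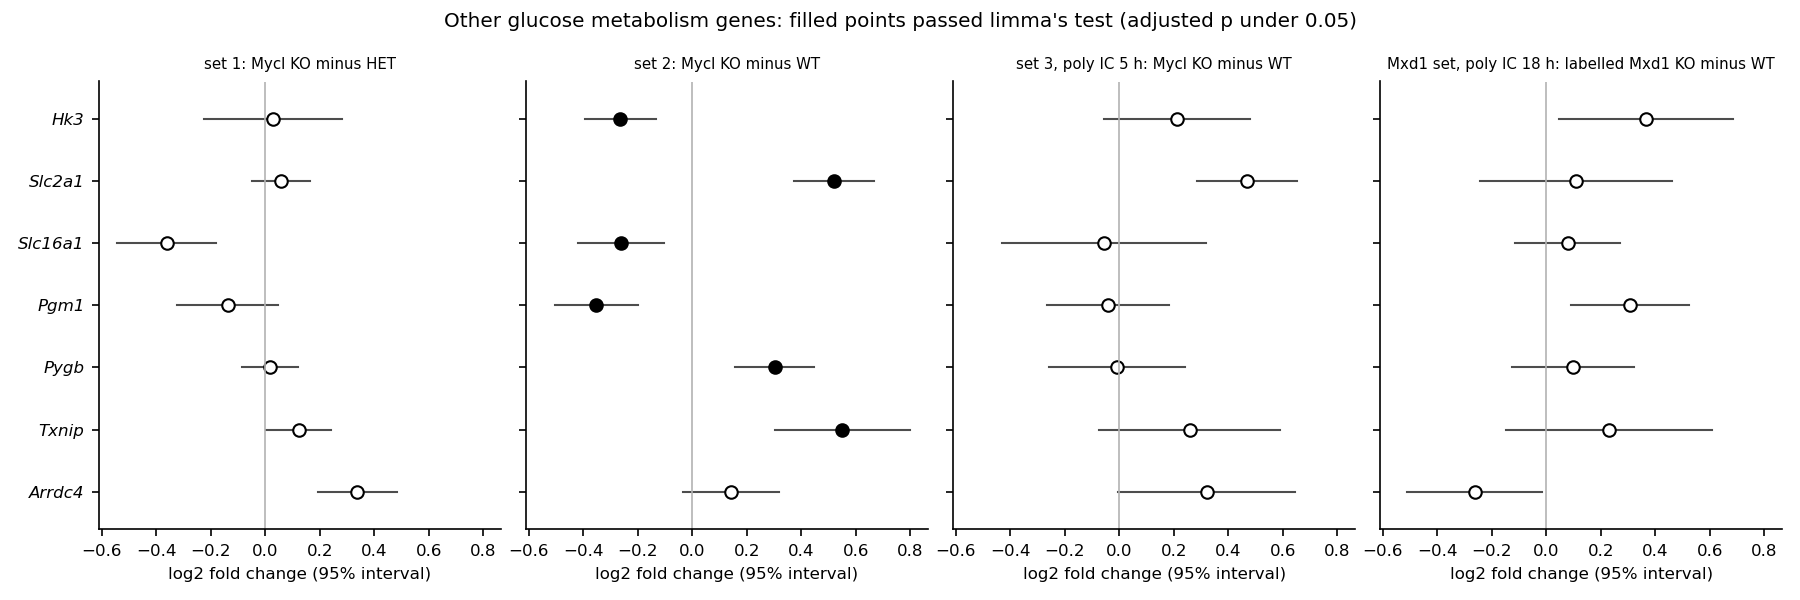
Log2 fold changes, KO minus control, with 95% intervals, of the 7 other glucose metabolism genes that passed a test in at least 1 comparison; filled points passed limma's test with an adjusted p under 0.05 in that set. In set 2 Slc2a1, Txnip and Pygb lie above 0 and Hk3, Slc16a1 and Pgm1 below it, and no point is filled in set 1, set 3 or the Mxd1 set.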

How the data were processed

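The authors deposited log2 values of 35556 transcript clusters (probe sets) on 35 arrays, made with the Affymetrix Expression Console and RMA per the submitters' processing notes, which give no versions. RMA equalises the distribution of values between arrays, which hides any change in the total RNA of a cell. Spike-ins named in the design text were not used here. Medians of the arrays lay at 6.50 to 6.57 (set 1), 5.55 to 5.60 (set 2), 5.47 to 5.53 (set 3) and 5.95 to 6.01 (Mxd1), so the sets were treated as normalized separately and tests were made within sets or between differences taken within sets.

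Of the clusters, 21789 had 1 symbol in the platform annotation, 1621 had several and 12146 were not listed. They gave 19938 genes, and 21698 clusters matched a RefSeq gene identifier with 0 symbols updated. For the 999 genes with several clusters, the one with the highest mean among those with a RefSeq accession was used. This condition was added after the data were seen, because of Hk1, and moved 39 genes. Genes entered a test when their value reached the array's 30th percentile of named clusters on a number of arrays no lower than the size of the smaller group.

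Two-sided tests were made in R 4.3.3 with limma 3.58.1 (lmFit, then eBayes), and p-values were adjusted after Benjamini and Hochberg across every gene in the fit, with 0.05 as the threshold. The code was tested on simulated data. Only the groups compared entered each fit, and the number of arrays limits the precision. Alternatives changed the filter, the normalization, the choice of cluster, the arrays in the fit, the array weights, the moderation and the replicate block. Replicate numbers are not stated to pair arrays, and the main fits did not pair them. Same-numbered deviations had correlations of -0.40 to 0.17 (set 1), -0.11 to 0.14 (set 2), -0.36 to 0.35 (set 3) and -0.19 to 0.24 (Mxd1). With so few arrays these cannot show whether a pairing exists. No 2 arrays held identical values. All 10 listed genes are named. Genes of the 6 pathway lists are named where they passed in at least 1 comparison, and the 5 genes most like Slc2a3 or the enzyme mean by correlation are named. The genes and lists were chosen with earlier results of these data known. Promoter sequences are from RefSeq (GRCm38.p6).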

Additional observations from a re-analysis of the deposited data

Results flagged for a closer look

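In each group of 4 or 5 arrays, the highest and lowest array of every named gene was set against its nearest neighbour (Dixon's test at the 95% level), which chance alone marks in about 1 in 20 groups. Of 90 pairs of gene and group looked at, 7 were marked. Among the glycolysis genes these were Pfkp at 11.58 in HET array 5 of set 1, where the other HET arrays lay at 12.20 to 12.28, Pgk1 at 8.94 in WT array 1 of set 2 (the others at 8.80 to 8.82), and Pfkl at 6.76 in WT array 5 of set 2 (6.80 to 6.81). Among the other glucose metabolism genes, Pgm1 was at 7.95 in KO array 2 of set 1 (8.29 to 8.31) and at 8.21 in KO array 3 of set 3 (7.71 to 7.82), the KO array with Mycl at 8.87. Txnip was at 9.50 in WT array 3 of set 2 (10.11 to 10.24), and Arrdc4 was at 8.74 in KO array 4 of set 3 (8.79 to 8.81). The effect of the Mycl KO on the glucose carrier Slc2a1 differed between the steady-state sets by -0.46 (set 1 minus set 2, limma adjusted p = 0.0169), and control genotype and set cannot be told apart in it.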

How the results depend on the processing

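Of 1629 values of single genes under the alternatives, 1509 kept their direction and their side of the threshold, 37 kept the direction and lost the call, 15 gained one and 68 changed sign, all of the last uncalled under the alternative. The counts of genes passing changed by over 1.5 times as follows. In set 1 (3 genes) the count was 6 with quantile normalization, 141 with array weights, 1 with the replicate block and 1 to 7 with an array left out. In set 2 (862) it was 358 with all 8 groups in 1 fit and 414 to 1013 with an array left out (414 without WT array 1, 454 without KO array 5). In set 3 (0) it was 1 without the filter, 1910 with all 8 groups, 72 with array weights, 1 with the replicate block, 10 without WT arrays 1 and 4 and 0 to 2 with an array left out. In the Mxd1 set (10) it was 235 with all 8 groups, 18 with array weights, 16 with the replicate block and 3 to 562 with an array left out (562 without WT array 2). Over sets 1 and 2 (649) it was 119 with all 8 groups, while leaving out an array kept it within 1.5 times (433 to 854). For set 3 minus set 2 (3) it was 179 with all 8 groups, 75 with array weights, 9 with trend and robust moderation, 41 without WT arrays 1 and 4 and 1 to 22 with an array left out. For set 1 minus set 2 (147) it was 15 with all 8 groups, 584 with array weights, 25 with the replicate block and 31 to 317 with an array left out. The replicate numbers are not stated to pair the arrays, and 1 KO array per set correlated best with its own number. The replicate block gave 828 genes in set 2 and kept Slc2a3 (adjusted p = 0.00999) and Hk1 (0.0229). The call of Slc2a3 in set 2 was also lost without the filter (adjusted p = 0.0583), with median centring (0.0506), quantile normalization (0.0530) and trend and robust moderation (0.0670). With all 8 groups Hk3 and Slc16a1 lost their calls in set 2, as did Slc16a1, Pgm1, Txnip and Arrdc4 over sets 1 and 2 and Slc2a1 for set 1 minus set 2 (0.147). Hk1 changed sign with the brighter probe set, chosen as an alternative after seeing the data, to 0.081 in set 1, -0.18 in set 2, -0.023 in set 3, 0.063 in the Mxd1 set, -0.056 over sets 1 and 2 and 0.26 for set 1 minus set 2. In set 1 it also did with array weights (0.012) and the mean of both probe sets (0.035), as did Pfkl with quantile normalization (0.034 in set 1, 0.012 for set 1 minus set 2). In set 3 array weights turned Hk2 (0.083), Pfkl (0.022) and Ldha (0.071), and leaving out WT arrays 1 and 4, an alternative also added after seeing the data, turned them to 0.097, 0.082 and 0.13. For set 3 minus set 2 array weights turned Hk1 (-0.077), Hk2 (0.022) and Ldha (0.044), and leaving out those arrays turned Hk1 (-0.12), Hk2 (0.027), Pfkl (0.030) and Ldha (0.098). Over sets 1 and 2 median centring turned Pfkp (-0.0068) and Ldha (-0.0089), quantile normalization Hk2 (0.0073), Pfkp (-0.011) and Ldha (-0.015), array weights Ldha (-0.0033) and the replicate block Pfkp (-0.063). That block drops HET array 5 of set 1, which has no KO array of its number, and leaving out this array alone gave the same value. In the Mxd1 set median centring turned Slc2a3 (0.00087). With an array left out, values that changed sign ranged in set 1 over -0.036 to 0.0095 (Hk1), -0.041 to 0.013 (Pfkl) and -0.069 to 0.021 (Pgk1), in set 3 over -0.14 to 0.0078 (Hk2) and -0.0039 to 0.10 (Aldoa), in the Mxd1 set over -0.12 to 0.067 (Slc2a3), -0.0048 to 0.18 (Aldoa) and -0.036 to 0.21 (Slc2a1), and over sets 1 and 2 over -0.033 to 0.023 (Hk2), -0.063 to 0.050 (Pfkp) and -0.0060 to 0.020 (Ldha). The other causes were not tested. The filter is a percentile and not a measured background: Mycl in KO arrays lay above it too, so passing it does not show that a level is free of background.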
